A study of Mus musculus with 22 samples.

Results

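A set of 9504 lamin A/C regions was listed in wildtype (WT) mouse dermal fibroblasts and in no library of cells lacking Lap2alpha (KO). They were the merged regions of the WT 3A6 library at 20 sonication cycles that overlapped, by at least 1 bp, a region of the WT E1 library at 20 cycles and no region of the 4 KO lamin A/C libraries (3A6 and E1, 16 and 20 cycles). They made up 23.6% of the 40276 regions shared by both WT antibodies and 5.20% of the 182893 regions of the WT 3A6 list at 20 cycles. The members were thus chosen by the presence or absence of listed regions in 6 lamin A/C libraries, so these shares carry no test. In the following, "lost" is short for "listed in both WT libraries at 20 cycles and in no KO lamin A/C library". The other regions shared by both WT antibodies were 30011 that lay in 1 to 3 KO lists, called partly kept, and 761 that lay in all 4, called kept.

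The study mapped lamin A/C, the chromatin remodelling ATPases BRG1 and CHD4, and Lap2alpha by chromatin immunoprecipitation with sequencing (ChIP-seq). The 2 genotypes were WT and Lap2alpha KO dermal fibroblasts, skin cells that make connective tissue. All cells were fixed with both DSG and formaldehyde, and their chromatin was sonicated for 16 or 20 cycles. Lamin A/C was precipitated with antibodies 3A6 and E1, and Lap2alpha with 1H11 in WT cells. The labels do not say how the KO line was made, whether it is 1 clone, or how many cultures were used.

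A-type lamins form part of the lamina under the nuclear envelope, and a mobile pool of them lies in the nuclear interior. Lap2alpha is the isoform of lamina-associated polypeptide 2 that has no membrane anchor, and it binds lamin A/C in the interior. Chromatin at the lamina is mostly gene-poor and silent, and interior lamin A/C also meets active chromatin. BRG1 is a motor subunit of SWI/SNF (BAF) complexes and CHD4 that of NuRD.

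A group, meaning 1 genotype, 1 antibody and 1 number of cycles, had a single library, and the 18 lists held 7283 to 233769 regions. No test was made, since the libraries of a genotype differ in antibody or sonication length and there are no replicates of a group. The lists hold positions only, so read depth and region height are unknown, and a region that is not listed may lie just under a calling threshold that is not given in the sources used here. Intervals on shares are 95% Wilson intervals, which cover counting error only and are narrower than the real error because neighbouring regions are not independent. The 6 lists used by the rule describe the lost regions but support nothing. The other 12 lists (WT lamin A/C at 16 cycles, Lap2alpha, BRG1 and CHD4) played no part in the choice. BRG1 regions of the WT library at 20 cycles lay at the ends of 12 of 12 fibroblast marker genes. They lay at 2 of 7 keratinocyte, 2 of 5 endothelial, 2 of 5 leukocyte and 2 of 4 melanocyte markers. Fibroblast markers numbered 10 of 12 in WT at 16 cycles and 11 of 12 in each KO list. KO at 20 cycles reached 3 of 7 keratinocyte and 3 of 5 endothelial markers. The BRG1 share over all protein-coding genes was not computed, so these counts are a description only. No marker gene held a lost region. Only 2.87% of all protein-coding genes held one in the body, so its absence from so few markers says little about them.

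Few promoter windows held a lost region, and no such count was made for the other sets of regions. Of 21262 RefSeq windows covering the 250 bases before an annotated start of a protein-coding gene (GRCm38.p6), 23 (0.108%) held a lost region, and 8 of them lay wholly inside one. The sequences of 8 windows are given as examples and do not represent all 23. Windows of olfactory and vomeronasal receptor genes were left out of these 8. The 8 were chosen after their values were seen. Capitals mark bases inside the lost region, so the first 7 windows are in capitals throughout and the last is in part. They stand 5′ to 3′ on the strand of the gene. The windows are those of Ins1, an insulin gene of rodents (chr19:52264047-52264296, plus strand); A1cf, a cofactor of APOBEC1 RNA editing (chr19:31868563-31868812, plus strand); Sorcs3, a sorting receptor of neurons (chr19:48205775-48206024, plus strand); Trpm3, a cation channel (chr19:22447958-22448207, plus strand, a start inside the gene); and Prkg1, the cGMP-dependent protein kinase (chr19:31664371-31664620, minus strand, a start inside the gene), all on chromosome 19. Cabs1, a calcium-binding protein of sperm (chr5:87979201-87979450, plus strand), and Sult1b1, a sulfotransferase (chr5:87536223-87536472, minus strand, a start inside the gene), lie on chromosome 5. Spata16, a gene of sperm development, lies on chromosome 3 (chr3:26637381-26637630, plus strand).
Ins1: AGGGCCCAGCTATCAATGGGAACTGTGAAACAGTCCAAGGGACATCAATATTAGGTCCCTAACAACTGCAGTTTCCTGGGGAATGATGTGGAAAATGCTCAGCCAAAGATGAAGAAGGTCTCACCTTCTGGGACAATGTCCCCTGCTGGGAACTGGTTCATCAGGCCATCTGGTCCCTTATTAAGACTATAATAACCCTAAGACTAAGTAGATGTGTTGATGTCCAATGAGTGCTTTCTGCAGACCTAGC
A1cf: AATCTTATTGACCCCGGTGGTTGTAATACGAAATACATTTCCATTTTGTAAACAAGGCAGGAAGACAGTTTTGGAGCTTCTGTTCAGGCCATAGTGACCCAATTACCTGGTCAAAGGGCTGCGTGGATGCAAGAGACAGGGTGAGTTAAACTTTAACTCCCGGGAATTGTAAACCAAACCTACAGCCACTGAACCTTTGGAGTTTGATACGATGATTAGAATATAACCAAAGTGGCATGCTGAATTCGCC
Sorcs3: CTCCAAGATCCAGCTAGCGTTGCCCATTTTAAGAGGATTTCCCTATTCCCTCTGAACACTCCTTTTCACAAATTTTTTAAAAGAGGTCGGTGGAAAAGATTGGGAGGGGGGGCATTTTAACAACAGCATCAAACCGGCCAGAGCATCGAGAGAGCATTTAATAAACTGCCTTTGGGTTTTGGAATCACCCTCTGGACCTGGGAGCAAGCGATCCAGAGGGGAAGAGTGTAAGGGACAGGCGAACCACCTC
Trpm3: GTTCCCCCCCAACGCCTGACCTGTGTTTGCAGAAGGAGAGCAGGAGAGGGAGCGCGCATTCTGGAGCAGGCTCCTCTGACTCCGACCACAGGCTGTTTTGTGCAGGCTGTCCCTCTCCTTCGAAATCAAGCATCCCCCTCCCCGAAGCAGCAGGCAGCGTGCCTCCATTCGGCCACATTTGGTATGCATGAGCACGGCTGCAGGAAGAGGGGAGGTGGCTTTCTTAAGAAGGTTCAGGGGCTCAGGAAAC
Prkg1: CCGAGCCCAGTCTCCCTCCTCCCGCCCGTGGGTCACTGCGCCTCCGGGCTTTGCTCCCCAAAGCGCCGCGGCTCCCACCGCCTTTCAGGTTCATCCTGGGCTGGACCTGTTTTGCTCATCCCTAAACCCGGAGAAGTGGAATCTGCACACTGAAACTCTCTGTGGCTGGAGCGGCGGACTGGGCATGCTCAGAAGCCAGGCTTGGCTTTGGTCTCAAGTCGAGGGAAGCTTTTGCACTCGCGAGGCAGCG
Cabs1: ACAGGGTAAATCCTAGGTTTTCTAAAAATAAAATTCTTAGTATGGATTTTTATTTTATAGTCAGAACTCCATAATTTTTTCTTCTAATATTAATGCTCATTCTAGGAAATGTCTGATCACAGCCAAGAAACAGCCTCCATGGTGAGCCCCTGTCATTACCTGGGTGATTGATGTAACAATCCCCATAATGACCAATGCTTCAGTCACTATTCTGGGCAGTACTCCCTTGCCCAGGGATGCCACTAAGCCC
Sult1b1: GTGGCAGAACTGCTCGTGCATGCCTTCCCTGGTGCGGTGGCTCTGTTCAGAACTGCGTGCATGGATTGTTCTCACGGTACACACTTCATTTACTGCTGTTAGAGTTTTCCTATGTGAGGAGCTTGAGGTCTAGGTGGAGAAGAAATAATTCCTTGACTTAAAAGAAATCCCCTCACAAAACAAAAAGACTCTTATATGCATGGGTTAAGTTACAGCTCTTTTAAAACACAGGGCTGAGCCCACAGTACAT
Spata16: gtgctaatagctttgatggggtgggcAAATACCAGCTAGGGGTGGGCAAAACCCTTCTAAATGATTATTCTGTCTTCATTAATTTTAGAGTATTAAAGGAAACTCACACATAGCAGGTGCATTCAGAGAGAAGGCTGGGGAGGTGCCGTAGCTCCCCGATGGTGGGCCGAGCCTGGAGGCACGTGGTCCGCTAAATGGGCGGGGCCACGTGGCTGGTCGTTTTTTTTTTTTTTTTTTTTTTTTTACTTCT

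The 23 windows were poorer in CpG than promoters in general. Their median GC content was 44.8% (range 24.8 to 62.8) against 55.6% over all 21262 windows, and their median number of CpG dinucleotides was 3 against 10. At most 2 CpG occurred in 10 of 23 windows (43.5%) and in 22.6% of all windows. The letters TATAAA were found on either strand in 3 windows (13%; 11.6% of all windows), AATAAA in 8 (34.8%; 15.3%), a run of 6 T, TTTTTT, on either strand in 10 (43.5%; 15.8%) and TGACTCA in 0 (4.06%). None of these motifs contains another. The printed windows of Ins1 and Cabs1 held 0 CpG, and that of Prkg1 held 16, so the set was not uniform. Olfactory and vomeronasal receptor genes supplied 5 of the 23 windows. Windows that hold partly kept or kept regions were not set beside the 23.

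The lost region at Ins1 was 1328 bp wide and also lay in both WT lamin A/C lists at 16 cycles, which the rule did not use. The nearest KO lamin A/C region was 2175 bp away. The 462 bp region at A1cf likewise lay in both 16-cycle lists. At Trpm3 (1082 bp) the region lay in the 3A6 list and in the Lap2alpha list at 20 cycles, and at Spata16 (486 bp) in the 3A6 list. Cabs1 (832 bp) was in the E1 list and Sult1b1 (540 bp) in the 3A6 list. The region at Sorcs3 (572 bp) was in none of the 12 lists outside the rule, and a KO lamin A/C region lay 79 bp from it. The 746 bp region at the inner Prkg1 start was in neither WT list at 16 cycles and overlapped a KO BRG1 region at 20 cycles. Only the regions at Ins1 and A1cf, among these 8, were therefore listed in all 4 WT lamin A/C libraries.

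Widths and distances to KO lamin A/C regions describe the lost regions further. The median width was 378 bp (quartiles 256 and 534), against 460 bp for partly kept, 618 bp for kept and 322 bp for all WT 3A6 regions, and the total length was 3.97 Mb. They were thus wider than the starting list as a whole and narrower than the other regions shared by both antibodies. The nearest KO lamin A/C region of any list was a median of 825 bp away (quartiles 281.8 and 1573). It was within 1 kb for 5422 lost regions (57.0%), within 5 kb for 9242 (97.2%), and farther than 10 kb for 50 (0.526%). To single KO lists the median distance was 4950 bp (3A6, 16 cycles), 2104 bp (3A6, 20 cycles), 3774 bp (E1, 16 cycles) and 1440 bp (E1, 20 cycles). These distances have no counterpart at other positions, so they do not show closeness particular to lost regions. At 20 cycles, KO lamin A/C was listed in 7.72% (3A6) and 13.1% (E1) of 200 bp windows 1 to 3 kb from the centres. In windows 10 to 20 kb away the values were 7.84% and 13.1%. The rule barred KO regions from the lost regions themselves, which can lower the nearest windows. The values therefore cannot show whether KO regions were denser nearby. Just inside the rule, 795 lost regions had a KO region within 50 bp. Just outside it, 1440 of the 14698 regions in exactly 1 KO list overlapped that list by at most 50 bp.

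The rule also selects in the other direction. When the genotypes were exchanged, 13929 of 34691 regions shared by both KO antibodies at 20 cycles (40.2%, 39.6 to 40.7) lay in no WT lamin A/C list. The exchange was added after the data were seen. Regions shared by both antibodies and unlisted in the other genotype were thus a larger share in KO than the 23.6% in WT, while KO lists were the longer ones for each antibody and length.

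WT libraries at 16 cycles show how often the lost regions were listed again in the same genotype. The 3A6 list at 16 cycles held 2648 of 9504 (27.9%, 27.0 to 28.8), against 22.8% of all WT 3A6 regions. The E1 list at 16 cycles held 1161 (12.2%, 11.6 to 12.9), against 5.88%. Either list held 3302 (34.7%), both held 507 (5.33%), and 6202 (65.3%, 64.3 to 66.2) were in neither. Most regions that were unlisted in KO were therefore also unlisted in WT cells sonicated for 16 cycles.

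Partly kept regions were listed more often at 16 cycles, at 35.4% (34.8 to 35.9) with 3A6 and 19.8% (19.3 to 20.2) with E1, and kept regions at 51.0% and 31.1%. With both antibodies the lost share was the lower one on 20 of 20 chromosomes. The order lost below partly kept held in each of 5 width classes with 3A6, from 21.0% against 26.3% under 200 bp to 53.4% against 54.7% at 1000 bp or more. In the widest class, with 163 lost regions, the difference was within counting error. Width moved with these shares, and its part in the difference was not tested. Of the 507 lost regions in all 4 WT lists, chromosome 19 held 119, chromosome 8 held 92, chromosome 3 held 89 and X held 65, while chromosomes 13, 16 and 18 held 0. Of all lost regions chromosomes 19, 8, 3 and X held 9.04%, 11.4%, 11.3% and 8.06%. Chromosomes 13, 16 and 18 held 1.40%, 1.65% and 0.915%.

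**Figure D1:**
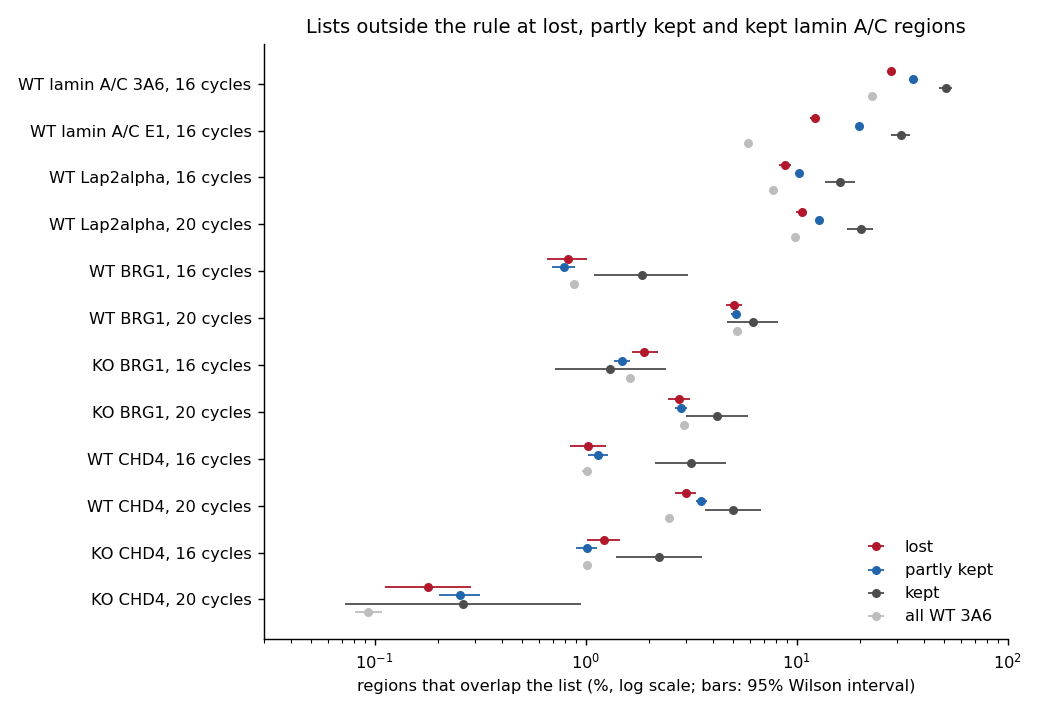
Share of lost (9504), partly kept (30011), kept (761) and all WT 3A6 regions (182893) that overlap each of the 12 lists outside the rule. Horizontal axis, percent on a log scale; points, share; bars, 95% Wilson interval. Lamin A/C and Lap2alpha shares stand in the order lost, partly kept, kept; BRG1 shares of lost and partly kept regions overlap in 3 of 4 lists.

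Lap2alpha itself was listed at few of the lost regions. Its WT lists overlapped 841 (8.85%, 8.29 to 9.44) at 16 cycles and 1003 (10.6%, 9.95 to 11) at 20 cycles, against 7.70% and 9.78% of all WT 3A6 regions. Partly kept regions stood higher, at 10.3% (9.94 to 10.6) and 12.7% (12.3 to 13.1), and kept regions at 16.0% and 20.1%. The lost share was below the partly kept one on 17 of 20 chromosomes at each length. At least 1 Lap2alpha list held 1702 lost regions (17.9%), and both held 142 (1.49%), with X (31), chromosome 3 (27), chromosome 8 (25) and chromosome 19 (20) in front. Of all lost regions these chromosomes held 8.06%, 11.3%, 11.4% and 9.04%. Lost regions that recurred in the WT 3A6 list at 16 cycles carried Lap2alpha at 20 cycles in 14.8% of 2648 cases (13.5 to 16.2), the others in 8.91% of 6856 (8.26 to 9.61). Whether a Lap2alpha region lay there thus moved with how often lamin A/C was listed in WT; the part of region strength in this was not tested.

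BRG1 was listed at a small share of lost regions. In WT it lay at 78 (0.821%, 0.658 to 1.02) of them at 16 cycles and at 482 (5.07%, 4.65 to 5.53) at 20 cycles. In KO it lay at 181 (1.90%, 1.65 to 2.20) and 263 (2.77%, 2.46 to 3.12). All WT 3A6 regions stood at 0.883% and 5.20% in WT and 1.63% and 2.91% in KO, so the lost regions were close to the background in 3 of the 4 libraries. The KO share was 2.32-fold the WT share at 16 cycles, where the whole KO BRG1 list was 1.49-fold as long, and 0.546-fold at 20 cycles, where the list was 0.853-fold as long. The genotypes thus stood in opposite orders at the 2 sonication lengths. Partly kept regions had the same orders, 1.89-fold and 0.547-fold.

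In KO at 16 cycles the lost share of 1.90% lay above the partly kept share of 1.49% (1.36 to 1.63), and it did so on 14 of 20 chromosomes. BRG1 regions of both KO lists and no WT list lay at 55 lost regions (0.579%, 0.445 to 0.752), against 0.337% (0.277 to 0.409) of partly kept ones, and the reverse pattern at 11 (0.116%), against 0.0800% of partly kept ones (101 and 24 regions). Both sets thus had more regions of the first pattern than of the second. Chromosome 2 held 9 of the 55, chromosome 8 held 8 and chromosome 10 held 6. Of all lost regions these chromosomes held 6.89%, 11.4% and 2.20%. Genes with 1 such region included Cdh11, the neuronal gene Auts2, the transcription factor genes Nfia and Prdm16 and the sodium-calcium exchanger gene Slc8a1, and Cdh13, a cadherin without a transmembrane part, had 2. These genes were named after their values were seen. In all 4 BRG1 lists there were 19 lost regions, 6 of them on chromosome 8 outside protein-coding genes and single ones in Prkg1, Sorcs3 and Lrmda.

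At 16 cycles WT CHD4 regions lay at 98 lost regions (1.03%, 0.847 to 1.25) and KO ones at 116 (1.22%, 1.02 to 1.46). At 20 cycles they lay at 283 (2.98%, 2.65 to 3.34) in WT and 17 (0.179%, 0.112 to 0.286) in KO. The backgrounds over all WT 3A6 regions were 1.01%, 1.02%, 2.49% and 0.0935% in the same order. The KO list at 20 cycles held only 7283 regions, 0.0663-fold the WT list, and its share at lost regions was 0.0601-fold the WT share, so list length and genotype cannot be told apart there. CHD4 at 20 cycles in WT lay at 43 of the 482 lost regions with BRG1 (8.92%, 6.69 to 11.8) and at 240 of the 9022 without (2.66%, 2.35 to 3.01); around partly kept regions these shares were 8.59% and 3.25%. None of the 10 Lap2alpha, BRG1 and CHD4 lists reached 6989 lost regions (73.5%, 72.6 to 74.4). In none of the 12 lists outside the rule were 4810 (50.6%, 49.6 to 51.6).

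Positions around the region centres show where these lists lay. In windows of 200 bp, Lap2alpha at 20 cycles was listed at the centre of 10.3% of lost regions and in 2.62% of windows 10 to 20 kb away, a 3.94-fold excess. For WT BRG1 at 20 cycles the values were 4.97% and 1.19% (4.18-fold), for WT CHD4 at 20 cycles 2.93% and 0.622% (4.70-fold), and for WT 3A6 at 16 cycles 27.3% and 7.23% (3.77-fold). Each of the 12 lists outside the rule was higher at the centre than in this flank, by 2.04-fold to 4.70-fold. Partly kept regions had the same shape, with 4.34-fold for Lap2alpha and 4.38-fold for BRG1 at 20 cycles, so both sets shared the local excess. KO lamin A/C was near 0 at the centre by the rule. In the flank, KO E1 at 20 cycles covered 13.1% of windows around lost regions and 19.4% around partly kept ones. For KO 3A6 at 20 cycles the values were 7.84% and 10.8%. The same KO lists told lost from partly kept regions, so this difference is a description and supports nothing.

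**Figure D2:**
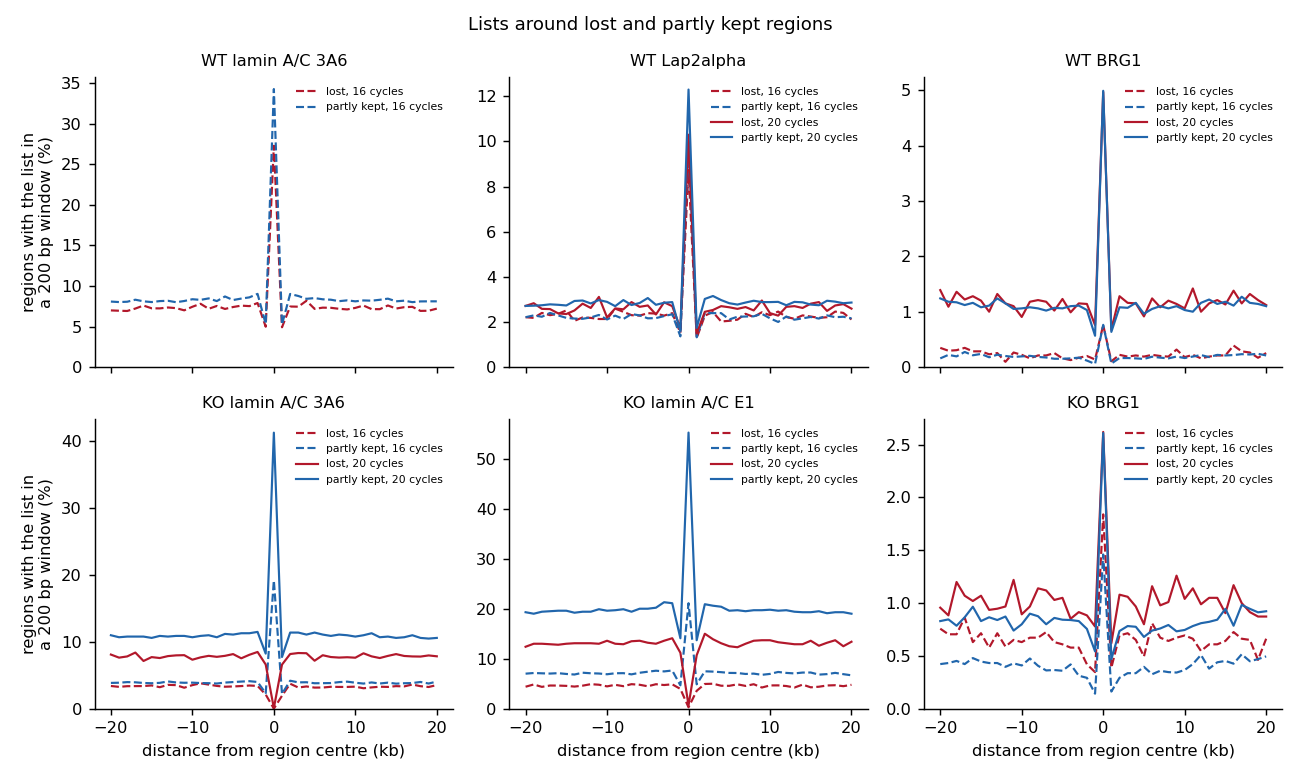
Share of lost (red) and partly kept (blue) regions with a listed region in a 200 bp window, by distance from the region centre in kb, for WT lamin A/C 3A6 at 16 cycles, WT Lap2alpha, WT BRG1 and 3 KO libraries; dashed lines 16 cycles, solid lines 20 cycles. Lap2alpha and BRG1 peak at the centre of both sets, and the dip of KO lamin A/C at the centre of lost regions is set by the rule.

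Chromosomes 8 (1080 lost regions), 3 (1077), 19 (859) and X (766) held 39.8% of the lost regions on 19.2% of the chromosome spans. The same 4 chromosomes held 36.7% of all regions shared by both WT antibodies, so most of the concentration was that of the starting set. Chromosome 19 had the highest density, 14.0 lost regions per Mb, followed by chromosome 8 with 8.35 and chromosome 3 with 6.73. Chromosome 18 had the lowest of the autosomes, 0.960 per Mb, and Y held 0.

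The share of shared WT regions that was lost followed another order. It was 42.5% on chromosome 1, 39.4% on chromosome 16 and 37.8% on chromosome 13, which had few shared regions (7.89, 4.06 and 2.93 per Mb). Chromosome 8, with the most (47.5 per Mb), lost 17.6%, and chromosome 15 had the lowest share, 13.9%. Chromosome 19 was high on both scales, with 40.5 shared regions per Mb of which 34.6% were lost. The median over 20 chromosomes was 25.9%. On chromosome 8 the KO E1 lists were denser than the WT ones, with 81.5 against 59.9 regions per Mb at 16 cycles and 164.6 against 133.5 at 20 cycles, while the KO 3A6 lists were sparser, with 33.9 against 82.9 and 109.4 against 136.9. On chromosome 19 KO was sparser in all 4 pairs, with 76.3 against 77.8 and 83.5 against 120.8 for 3A6, and 35.2 against 52.0 and 86.2 against 114 for E1.

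**Figure D3:**
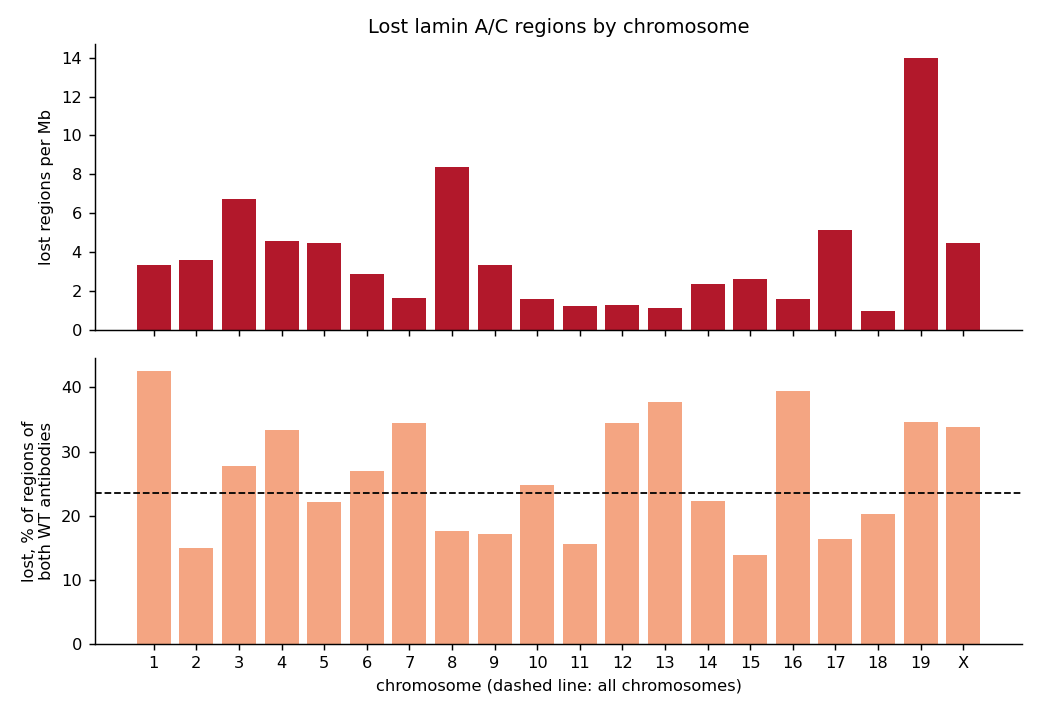
Lost regions per Mb of chromosome span (upper bars) and as a percentage of the regions shared by both WT antibodies (lower bars; dashed line, 23.6% over all chromosomes), for chromosomes 1 to 19 and X. Chromosome 19 leads the density with 14.0 per Mb; chromosome 1 leads the share with 42.5%.

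Lost regions lay in gene-poor DNA. The 917 of 2732 bins of 1 Mb with at most 2 protein-coding genes (33.6% of bins) held 5558 of them (58.5%, 57.5 to 59.5), against 51.7% (51.1 to 52.2) of partly kept, 42.3% (38.8 to 45.9) of kept and 53.6% of all WT 3A6 regions. Bins with 11 genes or more held 10.7% of lost, 13.6% of partly kept and 21.6% of kept regions. The gene-poor share was higher for lost than for partly kept regions on 16 of 20 chromosomes. A protein-coding gene held 26.9% of lost regions (26.0 to 27.8), beside 27.9% of partly kept and 27.8% of all WT 3A6 regions, and such genes span 37.9% of the chromosomes. Outside genes the median distance to the nearest one was 203.4 kb for lost, 189.7 kb for partly kept and 187.3 kb for all WT 3A6 regions. More than 100 kb from a gene lay 49.4%, 47.7% and 47.2% in the same order, so position relative to genes was close to that of the starting list. Without chromosomes 3, 8, 19 and X the gene-poor share was 52.4%.

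They were also unevenly spread. Lost regions occurred in 1143 bins (41.8%), and 175 bins (6.41%) held 50 percent of them. All regions shared by both WT antibodies lay in 1371 bins (50.2%). Their concentration in bins and their clusters were not computed, so the uneven spread is not shown to be particular to lost regions. The median distance to the next lost region was 34.0 kb. When lost regions up to 100 kb apart were chained, 2348 clusters resulted, of which 1052 were single regions (11.1% of lost regions) and 193 had 10 or more and held 46.5%. Chromosomes 8 and 3 had 23 and 22 of these 193, and chromosomes 7, 12, 13, 16 and 18 had 0.

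The 10 clusters with most lost regions are described by the length that each lamin A/C library covered. Since the clusters were chosen for WT regions at 20 cycles that no KO list held, the lower KO values are a description. The largest held 170 lost regions in 3540 kb of chromosome 3 (chr3:23445841-26985418), with Naaladl2, a relative of glutamate carboxypeptidase II, the synaptic adhesion gene Nlgn1, and Spata16. WT libraries covered 7.63% (16 cycles) and 15% (20 cycles) of it with 3A6, then 5.75% and 13.8% with E1. KO libraries covered 1.47%, 3.56%, 2.34% and 6.57% in the same order. The values at 16 cycles in WT, which the rule did not use, thus lay above the KO values at 16 cycles with both antibodies, and over all libraries the ranges overlapped.

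The next cluster had 160 lost regions in 1935 kb of chromosome 19 (chr19:50630866-52566242), beside Sorcs1, a sorting receptor gene, and with Ins1. Coverage was 9.52%, 19.3%, 7.36% and 17.6% in WT and 1.44%, 3.26%, 1.94% and 5.06% in KO, in the order above, and the genotypes did not overlap. Of the 160, 85 lay in the WT 3A6 list and 54 in the WT E1 list at 16 cycles, and 22 in the Lap2alpha list at 20 cycles. Of its shared WT regions 46.6% were lost, and 55.0% in a cluster of 116 lost regions at the start of chromosome 3 (chr3:3016267-4568840) that holds Hnf4g, an orphan nuclear receptor gene of gut and kidney. The latter was covered to 7.87%, 14.4%, 6.22% and 12.5% in WT and to 1.15%, 2.42%, 1.83% and 3.38% in KO.

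The cluster of Cdh11, the cadherin of mesenchymal cells, lay on chromosome 8 (chr8:101288249-103665049) and had 145 lost regions. Coverage there was 8.46%, 19.2%, 5.81% and 17.1% in WT and 1.2%, 4.74%, 3.88% and 9.64% in KO. The highest KO library (E1, 20 cycles) therefore lay above both WT libraries at 16 cycles, and the genotypes overlapped. In WT 20 (16 cycles) and 99 (20 cycles) BRG1 regions were listed there, and 61 and 158 were listed in KO. KO was the higher genotype at both lengths here, although the whole KO BRG1 list at 20 cycles was the shorter one. The other 9 clusters had fewer BRG1 regions in KO than in WT at 20 cycles, for example 25 against 81 in the Nlgn1 cluster and 38 against 54 in the cluster with Ins1. CHD4 regions of the Cdh11 cluster numbered 28 and 51 in WT and 53 and 6 in KO.

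Chromosome 19 supplied 5 of the 10 clusters. That of the sex-determination transcription factor genes Dmrt1, Dmrt2 and Dmrt3 and of Smarca2, which encodes BRM, the alternative motor of SWI/SNF, had 117 lost regions (chr19:25143820-27124450). It was covered to 5.4%, 18.2%, 3.25% and 16.5% in WT and to 2.42%, 3.95%, 1.17% and 5.83% in KO, where the highest KO value lay above both WT values at 16 cycles. Clusters at Sorcs3 (83 lost regions), at Sorcs1 (75) and within Prkg1 (75) followed. In the Prkg1 cluster (chr19:30672215-31671576) the shares were 7.35%, 16.3%, 4.63% and 13.3% in WT and 2.60%, 2.98%, 1.2% and 3.51% in KO.

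A cluster at Ajap1, an adherens junction gene on chromosome 4, differed from the others. Its 91 lost regions lay in a stretch that WT libraries covered to 17.7% and 16.3% at 20 cycles but only to 1.22% (3A6) and 0.249% (E1) at 16 cycles. The KO values at 16 cycles were 1.12% and 0.793%, so at that length the genotypes were close with 3A6 and KO was the higher with E1. Only 12 of the 91 lay in the WT 3A6 list at 16 cycles and 2 in the E1 list. Lap2alpha regions numbered 6 at 16 and 50 at 20 cycles. Sonication length and lamin A/C listing thus moved together here.

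**Figure D4:**
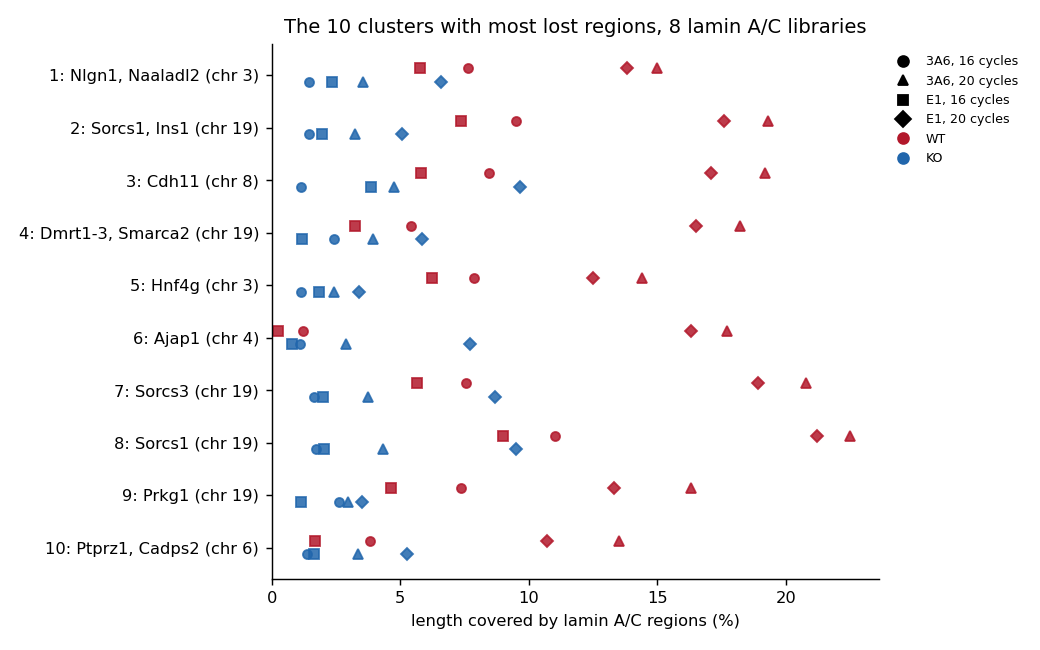
Percent of the length of each of the 10 clusters with most lost regions that was covered by lamin A/C regions in the 4 WT (red) and 4 KO (blue) libraries; symbols give antibody and sonication cycles. At Sorcs1 and Ins1 all WT values (7.36% to 19.3%) lie above all KO values (1.44% to 5.06%), and at Ajap1 the WT values at 16 cycles (1.22% and 0.249%) lie among and below the KO values (0.793% to 7.71%).

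Of 21883 protein-coding genes 627 (2.87%) had the centre of a lost region in the body, 144 had 5 or more and 60 had 10 or more. Genes are named by a rule: most lost regions, most per 100 kb, widest region at an end, and leading members of the gene lists. Since no KO list holds a lost region, lower KO coverage of genes chosen for many lost regions is a description. The 15 genes with most were long. Prkg1 had 75, Nlgn1 53, Csmd1, a complement-regulating membrane protein of brain, 50, Naaladl2 50 and Sorcs3 47. Lrmda, a gene of melanocyte differentiation, had 42, the ADP-ribose hydrolase gene Macrod2 32, Auts2 31, Sorcs1 30 and the adhesion receptor gene Adgrb3 29. Trpm3, the syntrophin gene Sntg1 and the glutamate receptor gene Grm8 had 28 each, the oxidoreductase gene Wwox 27 and Cdh11 24.

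Sorcs3 (chr19:48206025-48805505) was covered to 8.96% (16 cycles) and 24.4% (20 cycles) by the WT 3A6 libraries, and to 6.18% and 22.7% by the WT E1 ones; in KO the values were 1.37%, 3.72%, 2.34% and 9.67%. The KO E1 library at 20 cycles lay above both WT libraries at 16 cycles, so the genotypes overlapped. Of its 47 lost regions 25 recurred in the WT 3A6 list and 8 in the WT E1 list at 16 cycles, and 7 lay in each Lap2alpha list. Prkg1 (chr19:30564487-31765268) was covered to 7.10%, 14.7%, 4.40% and 12% in WT and to 2.50%, 3.29%, 1.28% and 3.67% in KO, with no overlap. Nlgn1 (chr3:25421808-26332866) stood at 7.40%, 14.4%, 5.83% and 13.9% in WT and 1.74%, 3.27%, 2.05% and 5.36% in KO, also without overlap. Nlgn1 held 95 and 55 Lap2alpha regions at 16 and 20 cycles, and Prkg1 115 and 107.

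Not every gene with many lost regions had low KO coverage. Csmd1 had 50 lost regions among 234 shared WT regions, and its KO coverage reached 14.2% in the E1 library at 20 cycles against 15% in the matched WT library. Wwox stood at 8.69% and 10.1% in that pair. With 3A6 at 20 cycles the same 2 genes stood farther apart, Csmd1 at 6.24% in KO and 16.3% in WT and Wwox at 3.06% and 11.5%. In Macrod2 the KO values of 0.539% to 2.74% overlapped the WT values of 0.821% to 4.26%, and in Auts2 those of 1.21% to 2.25% lay within the WT range of 0.728% to 7.07%. Mean KO coverage of Macrod2 and Auts2 was nevertheless low, at 1.61% and 1.54%. Their WT coverage at 16 cycles was low too, at 1.65% and 0.821% for Macrod2 and 1.63% and 0.728% for Auts2. Only Csmd1 and Wwox, among these 4 genes, were thus still covered to 14.2% and 8.69% by a KO library.

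Cdh11 was the densest gene of at least 20 kb, with 15.6 lost regions per 100 kb (24 in 153.4 kb, chr8:102632095-102785493). Coverage was 11.1%, 24.2%, 9.44% and 23.8% in WT and 0.922%, 1.45%, 1.67% and 3.06% in KO, in the order 3A6 at 16 and 20 cycles, then E1. The lowest WT value was well above the highest KO value. The gene was picked for its lost regions, so this gap is a description. In WT at 16 cycles, 15 of its 24 lost regions lay in the 3A6 list and 13 in the E1 list. The nearest KO region was a median of 1894 bp away and at most 17542 bp. WT BRG1 lists held 0 (16 cycles) and 1 (20 cycles) regions of the gene and KO BRG1 lists 5 and 10, while for CHD4 the numbers were 1 and 4 (WT), then 6 and 1 (KO). Lap2alpha regions numbered 19 and 11. Of the 24 lost regions, 3 and 1 overlapped a KO BRG1 region at 16 and 20 cycles and 0 a WT one.

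Sirpb1c, a signal-regulatory receptor gene of myeloid cells, followed with 11 per 100 kb, Hnf4g with 9.22, Sorcs3 with 7.84 and the cytochrome P450 gene Cyp2c39 with 6.75. Prkg1 (6.25), the guanine deaminase gene Gda (6.15), the cytoskeletal regulator gene Kank1 (6.07), Nlgn1 (5.82) and Spata16 (5.79) completed the 10. Hnf4g (chr3:3508030-3659800) was covered to 8.72%, 17.8%, 6.73% and 14.5% in WT and to 0.907%, 2.98%, 2.30% and 3.08% in KO, with no overlap. Kank1 was covered to 19.8% and 16.0% at 20 cycles in WT but to 1.26% and 0.499% at 16 cycles, where KO stood at 2.85% and 1.03%. For Kank1 the order of the genotypes therefore depended on the sonication length. The RefSeq body of Cyp2c39 overlaps that of Cyp2c38, and a lost region there counts for both genes.

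**Figure D5:**
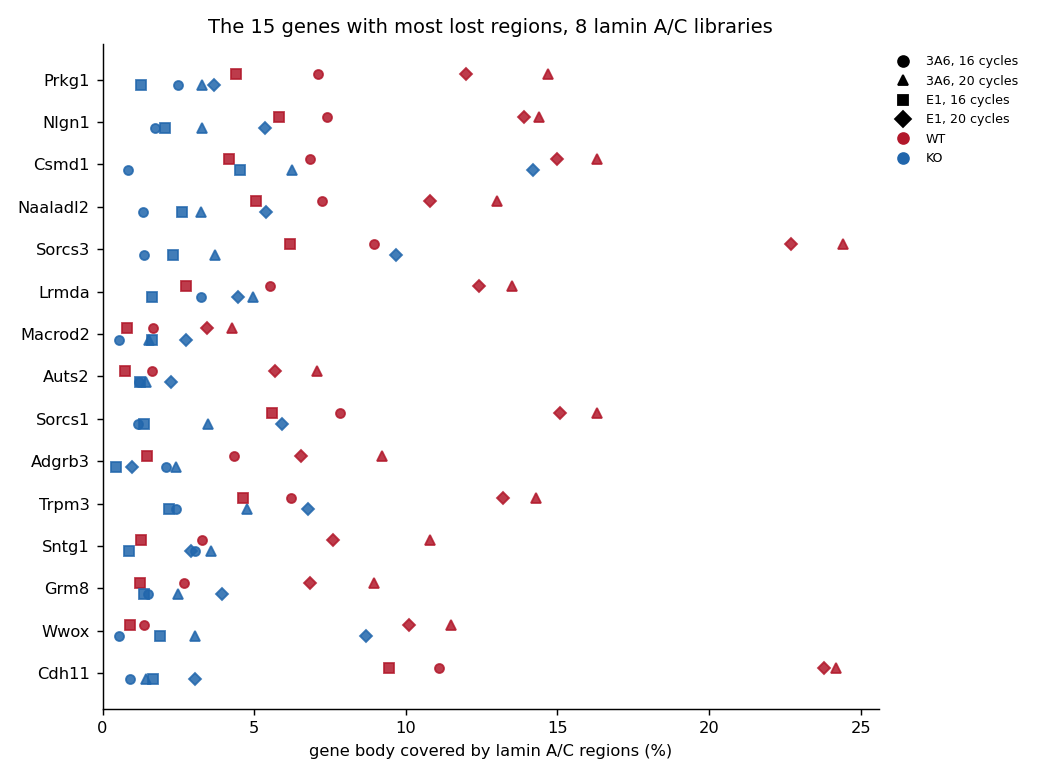
Percent of the gene body covered by lamin A/C regions in the 4 WT (red) and 4 KO (blue) libraries for the 15 genes with most lost regions; symbols give antibody and sonication cycles. Cdh11, Prkg1 and Nlgn1 show no overlap between genotypes, and Csmd1 and Wwox do. The genes were chosen for regions that no KO list held, so lower KO values are a description.

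Within 1 kb of a gene end, 128 of 21883 genes (0.585%) had a lost region, 43 of them olfactory, vomeronasal or predicted genes. Outside these 43, the widest was that of Ins1, followed by Dmrt3 (1050 bp) and Pex5l, a regulator of brain pacemaker channels (902 bp). The photoreceptor gene Rp1 (862 bp), the zinc finger transcription factor gene Fezf1 (840 bp) and Cabs1 (832 bp) came after them. Bche, which encodes butyrylcholinesterase (796 bp), the deubiquitinase gene Usp13 (742 bp), Cd40lg, the CD40 ligand of T cells (738 bp), and Ccdc70 (736 bp) came next. AY761185 on chromosome 8, which was left out of this ranking as well, had a region of 810 bp. The body of Ins1, 0.719 kb long, was covered to 40.3% in the WT 3A6 library at 20 cycles and to 0 in the other 7 lamin A/C libraries, since most of its lost region lay before the gene. Fezf1 was covered to 36.3% and 22.5% in WT at 20 cycles, to 0 in WT at 16 cycles, and to 9.57% in the KO E1 library at 20 cycles. Usp13 kept 18.5% in that KO library beside 20.3% in WT.

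Gene lists differed widely in how many members held a lost region, and no list was tested. Long neuronal adhesion and synapse genes led with 32 of 42 genes and 393 lost regions, 7.41 per Mb of gene body against 2.46 over all protein-coding genes. Among them Tenm3, a teneurin that guides neuronal wiring, had 24. Of 5 sortilin receptor genes, 2 (Sorcs3 and Sorcs1) held 77, or 43.9 per Mb. Of 13 type II cadherin genes, 7 held 40, and 24 of these were in Cdh11; Cdh8 and Cdh9 had 4 each and Cdh6 3. Of 5 classical type I cadherin genes only Cdh4, with 7, held any. Of 26 glutamate receptor genes 11 held 59, among them Grm8, Grm7 (12), Grid1 (5) and Grm3 (3). These lists also had many shared WT regions, so the share lost (23.4%, 36.2%, 23.4%, 5.93% and 27.6% in this order) is to be read beside 22.9% over all gene bodies. By that measure the neuronal genes were near the background, and the type I cadherins below it. The type II cadherins were near it only when summed. Cdh11 lost 24 of its 35 shared regions and Cdh9 4 of 6. By contrast, Cdh8 lost 4 of 57, Cdh12 3 of 34 and Cdh6 3 of 21. Both sortilin receptor genes lie on chromosome 19, where 34.6% of all shared regions were lost, close to their 36.2%.

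Nuclear receptor genes held lost regions in 6 of 46 cases, with 14 in Hnf4g, 7 each in Nr3c2, the mineralocorticoid receptor, and Thrb, a thyroid hormone receptor, and 5 in Esrrg. Cytochrome P450 genes did so in 11 of 93 cases (34 regions), led by Cyp2c39 with 15, and UDP glucuronosyltransferase genes in 4 of 21. V2R pheromone receptor genes did so in 15 of 123 and V1R genes in 2 of 230. Olfactory receptor genes, which are short, had a lost region in the body in 10 of 1110 and at an end in 29 (2.61%, against 0.585% of all genes). Zinc finger genes were at 18 of 397, with Zfp804b (12) first, and serpin genes at 1 of 63. Over all protein-coding genes 2.87% held one in the body. The share of shared WT regions that was lost was 22.9% over all gene bodies. It was near this in nuclear receptor (25.2%), cytochrome P450 (23.3%), V2R (24.2%) and zinc finger genes (20.4%). UDP glucuronosyltransferase genes stood higher, at 31.2% of 16 shared regions, and olfactory receptor genes lower, at 15.3% of 72. V1R genes (66.7% of 3) and serpin genes (20.0% of 5) had too few shared regions to place.

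None of 32 fibroblast and matrix genes, 16 contractile and YAP target genes, 30 cell cycle genes, 25 housekeeping genes, 14 NuRD genes, 39 HOX genes, 57 histone genes or 49 keratin genes held a lost region, and none of these genes held a region shared by both WT antibodies at 20 cycles either. They therefore had nothing to lose under the rule. Major urinary protein genes had 6 shared regions and 0 lost, and islet and gut hormone genes held 0 in the body and 1 at an end, that of Ins1. Of 25 SWI/SNF genes only Smarca2 held any, 10 of its 18 shared regions. Its coverage was 2.76%, 11.4%, 2.03% and 9.97% in WT and 1.94%, 2.55%, 0.593% and 3.02% in KO, and the highest KO library lay above both WT libraries at 16 cycles. On the nuclear envelope list 1 of 22 genes held 1 lost region. That gene, Man1a, encodes a Golgi mannosidase and was listed in error.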

How the data were processed

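Per library, the authors deposited the chromosome, start and end of each called interval, without height or read number. The build is GRCm38, and MACS2 2.1.4, HOMER 4.11.1, SAMtools, deepTools and bedtools are named, per the submitters' processing notes. How each tool was used, and with which threshold, control or pooling, is not given in the sources used here. Of 22 samples, 18 had a list used here, and 4 input samples were not analysed here.

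From the lists, intervals of width 0 (1 to 1201 per list) and 6 mitochondrial intervals were left out, and overlapping intervals of a list were merged (7 lists had any). Overlap meant at least 1 bp. Longer lists overlap more by length alone, so shares are given beside those of all WT 3A6 regions. Groups came from the sample titles, with 1 library each, and no test was made. Depth could not be read from the lists. Shares have 95% Wilson intervals. Genes and promoter windows came from RefSeq tables of GRCm38 (21883 protein-coding genes, 17491 of them with a window). Gene bodies were matched by the centre of a region, gene ends within 1 kb, and density in bins of 1 Mb. Clusters chained lost regions at gaps of at most 100 kb.

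Named genes were the 15 with most lost regions, the 10 of at least 20 kb with at least 5 and most per 100 kb, the 10 with the widest region within 1 kb of an end, and up to 4 leading members of each list. Olfactory, vomeronasal and predicted genes were counted and named only where a list led to them. None of them is named here except AY761185, which was left out of the ranking at gene ends. The members, gene lists and naming rule were chosen with earlier results of these data known. Interval functions were tested on simulated intervals. Python 3.11.15, numpy 2.4.6 and pandas 2.3.3 were used. Alternatives varied the merging, the absence and presence rules, the starting list, width, list length, chromosomes, bins and cluster gap.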

Additional observations from a re-analysis of the deposited data

Results flagged for a closer look

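At lost regions the KO and WT shares of BRG1 stood in opposite orders at the 2 sonication lengths: the difference, KO minus WT, was 1.08 percentage points at 16 cycles and -2.3 at 20 cycles. For CHD4 the difference was 0.189 points at 16 cycles and -2.8 at 20 cycles, where the KO list held 7283 regions. At 16 cycles the CHD4 intervals overlapped (0.847 to 1.25 in WT, 1.02 to 1.46 in KO), so that sign was within counting error. With 1 library per group the difference between the sonication lengths was not tested. Partly kept regions had BRG1 differences of 0.703 and -2.34 points, so both sets showed the opposite orders for BRG1. For CHD4 the partly kept values were -0.137 and -3.28 points, the first again with overlapping intervals (1.03 to 1.27 in WT, 0.903 to 1.13 in KO). Region lists at 16 cycles were shorter in WT than in KO for both proteins (72225 and 107321 regions for BRG1, 49441 and 88788 for CHD4), and at 20 cycles longer (205999 and 175641, and 109769 and 7283). The part of list length in these orders was not tested.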

How the results depend on the processing

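The number of lost regions (9504) depended on the rule. It was 4082 with no KO lamin A/C region within 1 kb, 50 with none within 10 kb, 507 when all 4 WT lists were required, 4111 when E1 covered at least 50 percent of the 3A6 region, 2785 among regions of at least 500 bp, and 5722 without chromosomes 3, 8, 19 and X, an alternative chosen after seeing the data. Leaving out 1 KO list at a time gave 11035 to 17515, the highest without E1 at 20 cycles.

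The share with a WT 3A6 region at 16 cycles (27.9%) was 30.3% with intervals within 1 kb merged, 24.6% and 12% with no KO region within 1 kb and 10 kb, 29.3% with the KO lists at 20 cycles alone, 26.2% with E1 over at least 50 percent, 21.5% starting from E1 regions, 36.1% at 500 bp or more, 32.6% with equal numbers of the widest regions and 21.3% without the 4 chromosomes; leaving out 1 KO list gave 28.5% to 29.8%. In the same order of settings, where they moved it, the Lap2alpha share at 20 cycles (10.6%) was 12% (merged), 6% (10 kb), 15.6% (all 4 WT lists), 8.06% (from E1), 12.5% (500 bp), 12.1% (widest) and 8.14% (without the chromosomes), and 10.5% to 11.4% without 1 KO list. That of WT BRG1 (5.07%) was 6.23% (merged), 5.61% (1 kb), 0 (10 kb, 50 regions), 7.30% (all 4 WT lists), 3.94% (from E1), 6.14% (500 bp), 5.71% (widest) and 4.19% (without the chromosomes), and 4.82% to 5.25% without 1 KO list. That of WT CHD4 (2.98%) was 3.36% (merged), 2.00% (10 kb), 3.35% (all 4 WT lists), 2.32% (from E1), 4.38% (500 bp), 3.56% (widest) and 2.01% (without the chromosomes), and 2.93% to 3.26% without 1 KO list. The gene-poor share (58.5%) was 60.1% (1 kb), 36.0% (10 kb), 74.4% (all 4 WT lists), 60.2% (500 bp), 52.4% (without the chromosomes) and 69.5% with bins of 500 kb, whose classes are cut anew, and 55.2% to 58.7% without 1 KO list. Clusters of 10 or more numbered 193, and 120 with a gap of 50 kb. The causes were not tested.

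Lost minus partly kept was negative for WT 3A6 at 16 cycles in 16 of 16 alternatives (-23.4 to -4.03 points) and for Lap2alpha at 20 cycles in 17 of 17 (-6.68 to -0.839). For WT BRG1 at 20 cycles it was negative in 11 of 17 and positive in 6. For WT CHD4 it was negative in 16 of 17 and 0.0118 at 500 bp or more. The gene-poor difference was positive in 15 of 16 and -15.7 with no KO region within 10 kb, which leaves 50 regions. With all 4 WT lists required, the share in the WT 3A6 list at 16 cycles is fixed at its maximum and was not computed. No paired analysis was possible because the labels give no replicate numbers. WT and KO libraries of 1 antibody and sonication length were set side by side without a test. Depth limits every share to an unknown extent, since the lists hold no reads.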

Other observations

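The 50 lost regions farther than 10 kb from any KO lamin A/C region were spread differently over the chromosomes than the whole set. Chromosome 1 held 9 of them, chromosomes 4 and 5 held 7 each, chromosome 7 held 6 and X held 5. Of all lost regions, chromosomes 1, 4, 5, 7 and X held 6.90%, 7.54%, 7.10%, 2.49% and 8.06%. X was thus near its share. Chromosome 8 (11.4% of all lost regions) held 2. Chromosomes 3 (11.3%) and 19 (9.04%), which stood among the 3 with the highest densities of lost regions, held 0. The 50 were chosen by distance in KO lists that the rule used, so their spread is a description. The gene-poor share of the 50 was 36.0%, and 12% of them were in the WT 3A6 list at 16 cycles and 6% in the Lap2alpha list at 20 cycles. Chosen after their values were seen, the region in Adgrb3 (chr1:25532009-25532070) lay 13.7 kb from the nearest KO region, and the farthest, on X (chrX:29682237-29682496), lay 1463 kb from it.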
